A study of Mus musculus with 12 samples.

Results

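Thioglycollate-elicited peritoneal macrophages that lack N4BP1 and were given R848 were set against wild-type macrophages given LPS, to ask for which NF-κB-dependent genes the loss of N4BP1 brings the R848 response to the level of the wild-type LPS response and which genes stay apart. R848 is a ligand of TLR7, which signals through the adapter MyD88 alone, and LPS is a ligand of TLR4, which signals through MyD88 and, from endosomes, through TRIF. Both adapters activate NF-κB, the transcription factor family behind most inflammatory genes, and TRIF also activates IRF3, which turns on interferon-β and with it the interferon-inducible genes. N4BP1 is an inhibitor of NF-κB that binds NEMO, the regulatory subunit of the IκB kinase.

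Both groups came from C57BL/6J mice: *N4bp1*-/- macrophages with R848 at 20 ng/ml for 2 h (KO R848 below) and *N4bp1*+/+ macrophages with LPS at 10 ng/ml for 2 h (WT LPS), with 2 mice each. The other 4 groups of the 12 libraries, *N4bp1*+/+ with R848 (WT R848), *N4bp1*-/- with LPS (KO LPS) and both genotypes untreated, serve as starting points. The knockout is a germline CRISPR-Cas9 allele with a small deletion in a coding exon, so every cell of the mouse carries it, and the study used young adult mice of both sexes, with no age or sex given for single libraries. Lavage cells were sequenced in bulk, so fewer cells of a type and less RNA per cell cannot be told apart.

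The comparison takes in all 124 genes of the deposited tables, 124 of 124, which the authors list as NF-κB-dependent. The sources used here do not say how the genes were chosen. Each gene has 1 value per group, the authors' mean FPKM over both mice, a read level scaled for transcript length and library size. Since the spread between mice is not known, no test was made and no difference can be set against the error between replicates. The depth of the libraries is unknown, and the experiment was performed once. KO R848 and WT LPS come from separate deposited tables whose common scaling is not stated, so the level of the whole table can shift, and each count below is followed where needed by what 3 other scalings do to it. The ratio is log2(KO R848/WT LPS), and a gene is said to be at the LPS level when the groups are under 2-fold apart. *N4bp1* and most markers of cell identity are not among the 124 genes and were not analysed here. *Spi1*, which encodes the macrophage factor PU.1, had 335 FPKM in KO R848 and 304 FPKM in WT LPS.

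Of the 124 genes, 24 were at least 2-fold lower in KO R848 than in WT LPS (19.4% of those listed), 26 were at least 2-fold higher (21%) and 74 were at the LPS level (59.7%). Counting any difference, 64 were lower and 60 higher, and the median log2 ratio was −0.04. This balance turns with the scaling: 54 were lower and 70 higher when the tables were matched on the median gene, 73 and 51 on the genes least induced by the stimuli, and 52 and 72 on the genes of highest level, with median log2 ratios of 0.18, −0.24 and 0.29. The ratio ran from −7.27 for *Cxcl10* to 5.23 for *Trem1*. Wild-type cells given R848 had started nearer to the LPS level than this in most genes. In WT R848, 32 genes were at least 2-fold below WT LPS (25.8%), 10 were at least 2-fold above it (8.06%) and 82 were at its level. The median absolute log2 ratio to WT LPS was 0.81 for KO R848 and 0.58 for WT R848. KO R848 lay nearer to WT LPS than WT R848 did for 54 genes and farther for 70, and under the 3 other scalings it was nearer for 42 to 58 and farther for 66 to 82.

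**Figure D1:**
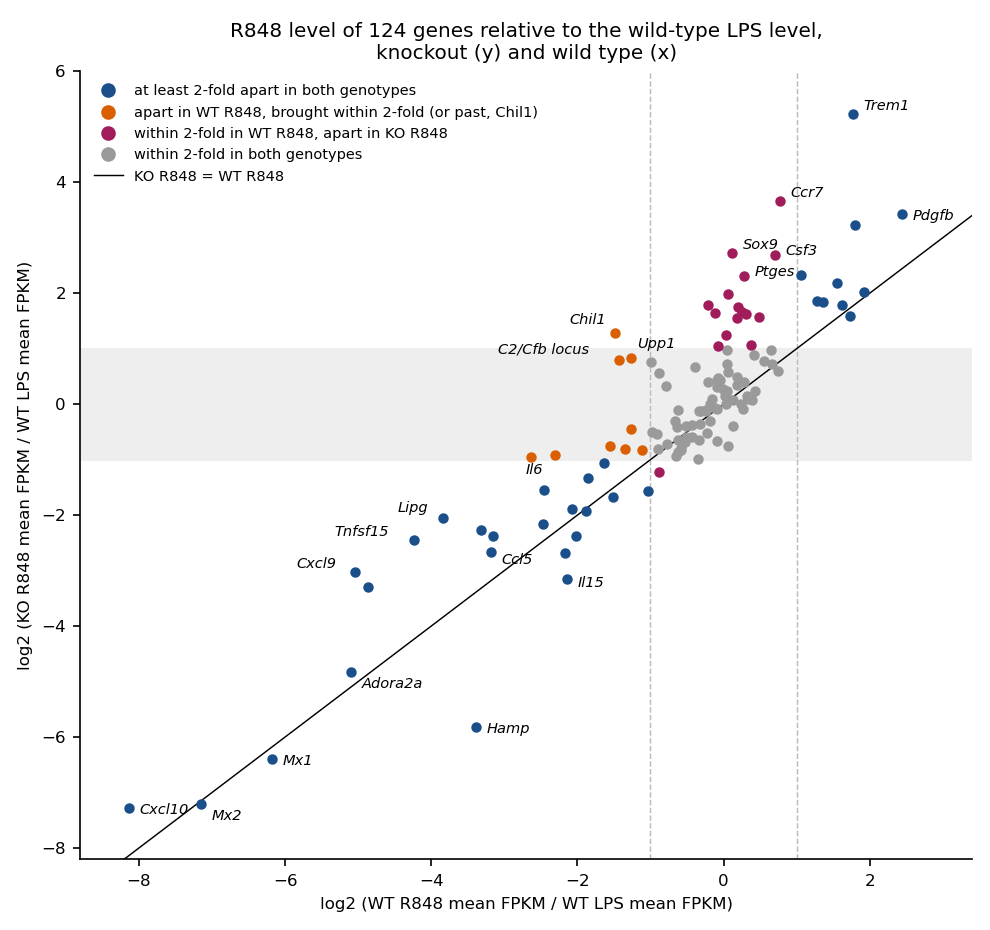
Each point is 1 of the 124 genes, with log2 of KO R848 over WT LPS on the y axis and log2 of WT R848 over WT LPS on the x axis, from the authors' mean FPKM. The grey band and the dashed lines mark 2-fold. Both axes are divided by WT LPS, so the rise along the diagonal is built in, and the distance above or below the black line is the difference between KO R848 and WT R848. The interferon-inducible genes *Cxcl10*, *Mx1* and *Mx2* lie within 1 log2 unit of the line at the lower left, and the 15 genes in magenta above the band were at the LPS level in wild type.

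Against its own wild type, KO R848 was at least 2-fold higher for 31 genes (25%) and at least 2-fold lower for 2 (1.61%), *Hamp* and *Il15*. These 31 genes are spread over all 3 starting positions: 10 of the 32 that were lower in WT R848, 18 of the 82 at its level and 3 of the 10 above it.

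Of the 32 genes that wild-type cells expressed at least 2-fold less after R848 than after LPS, 8 were at the LPS level in KO R848, 1 was past it and 23 stayed at least 2-fold below. KO R848 covered a median of 26.6% of the log2 distance between WT R848 and WT LPS over the 32 genes. It covered less than 0, with KO R848 farther away than WT R848, in 9 genes, up to 50% in 16, 50% to 100% in 4 and more than 100% in 3. The genes were picked on WT R848, and both terms of the share use that mean, so the share is a description. The median log2 ratio of KO R848 over WT R848 was 0.56 in these 32 genes. It was 0.18 in the 82 genes at the LPS level in WT R848 and 0.61 in the 10 above it. The 8 genes brought to the LPS level include a cytokine, adhesion and matrix genes, a complement locus and a nucleoside enzyme.

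*Il6* (chromosome 5 of mm10, 30013073 to 30019981), which encodes the inflammatory cytokine interleukin-6, had 84.3 FPKM in KO R848 and 160.0 FPKM in WT LPS. WT R848 had 32.4 FPKM, so KO R848 was 2.60-fold above its wild type and covered 59.9% of the log2 distance. The remaining difference to WT LPS was 1.90-fold, just inside the 2-fold line, and KO LPS had 129 FPKM. *Serpina3g*, a serine protease inhibitor gene, lies as near to the line. It had 3.10 FPKM in KO R848 and 5.98 FPKM in WT LPS, with 0.964 FPKM in WT R848. The adhesion molecule gene *Vcam1* had 48.8 FPKM in KO R848 and 86.9 FPKM in WT LPS, against 40.2 FPKM in WT R848. It covered 25.2% of its distance, the least of the 8, and it had started just past the line at 2.16-fold.

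*Sdc4*, which encodes the cell surface proteoglycan syndecan-4, had 580.4 FPKM in KO R848 and 982 FPKM in WT LPS, against 335 FPKM in WT R848. *Penk*, the precursor of enkephalin peptides, had 3.02 FPKM in KO R848 and 4.11 FPKM in WT LPS, against 1.71 FPKM in WT R848. Both stayed below WT LPS by less than 2-fold, whereas the joined *C2* and *Cfb* locus and *Upp1* were above it. The joined *C2* and *Cfb* locus, from which complement proteases are made, had 70.9 FPKM in KO R848 and 40.9 FPKM in WT LPS, against 15.1 FPKM in WT R848, and its reads cannot be split between the genes. *Upp1*, which encodes the uridine-cleaving enzyme uridine phosphorylase 1, had 13.2 FPKM in KO R848 and 7.43 FPKM in WT LPS, against 3.08 FPKM in WT R848. *Chil1*, a chitinase-like gene, was past the line on the far side, with levels under 1 FPKM throughout (0.596 FPKM in KO R848, 0.244 FPKM in WT LPS and 0.0871 FPKM in WT R848).

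The membership of the 8 is sensitive to how the LPS table is scaled. *Sdc4* alone kept its place under all 3 other scalings. *Il6*, *Serpina3g* and *Vcam1* lay over 2-fold below WT LPS when the tables were matched on the genes least induced by the stimuli, and the *C2* and *Cfb* locus and *Upp1* lay over 2-fold above it when they were matched on the median gene or on the genes of highest level. *Penk*, when they were matched on the genes of highest level, and *Vcam1*, under that scaling and the median gene, were no longer 2-fold apart from WT LPS in WT R848. Of the 23 genes that stayed below, 21 did so under all 3 scalings.

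**Figure D2:**
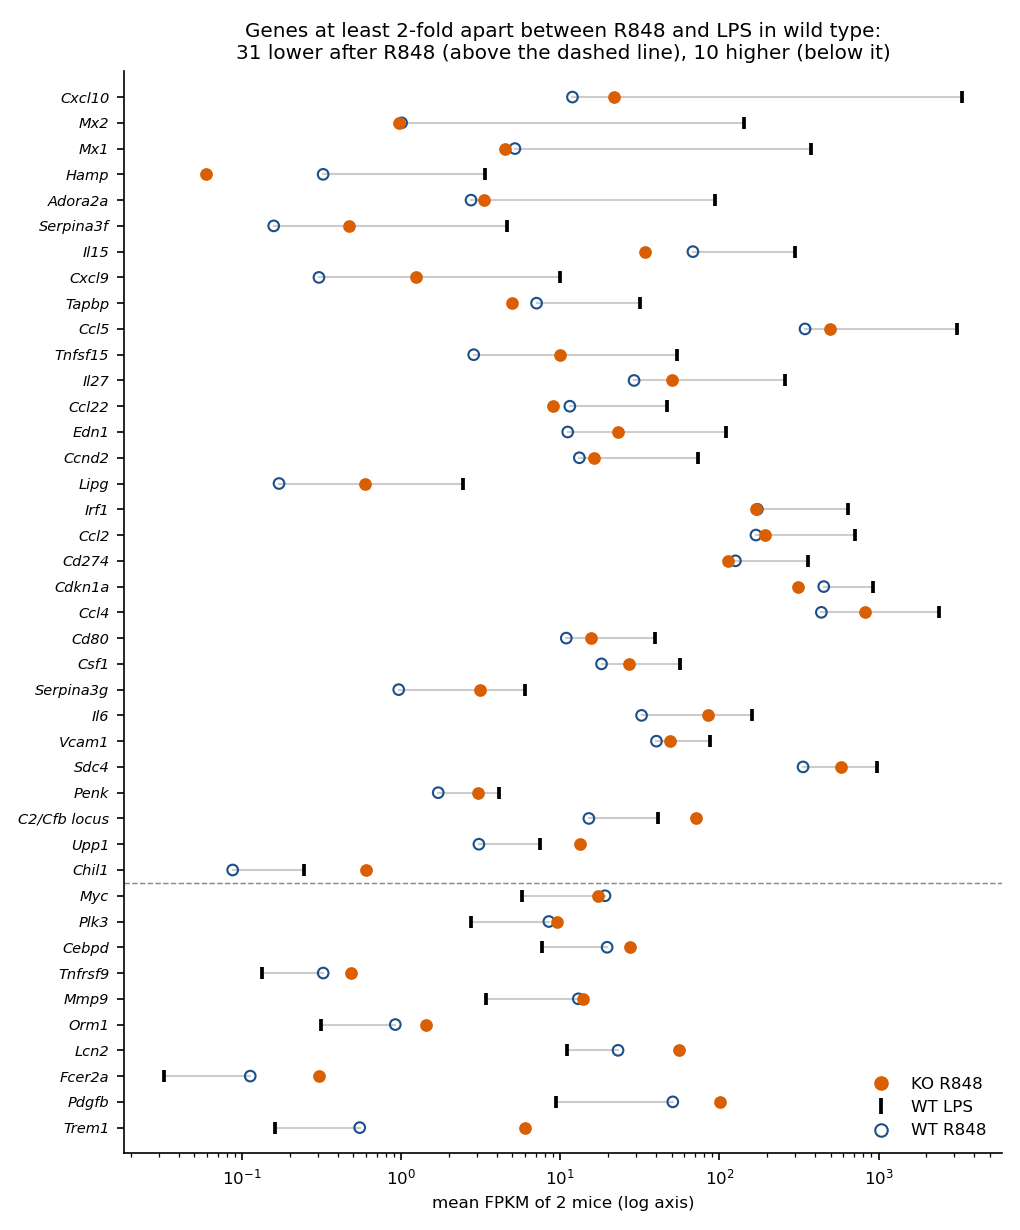
Mean FPKM of 2 mice on a log axis for 41 of the 42 genes at least 2-fold apart between R848 and LPS in wild-type macrophages. Filled points are KO R848, black bars WT LPS and open circles WT R848, and each grey line joins WT R848 to WT LPS. In the upper part KO R848 sits beside WT R848 for *Mx1*, *Mx2* and *Irf1* and between WT R848 and WT LPS for *Il6*, *Sdc4* and *Penk*, and in the lower part it lies to the right of WT LPS for all 10 genes.

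Of the 23 genes that stayed below WT LPS, 10 are on the list of interferon-inducible genes. That list has 11 members, of which 10 were at least 2-fold below WT LPS in KO R848, against 19.4% of all listed genes, and 1, *Psme2*, was at its level, with a median log2 ratio of −2.68 against −0.04 for all genes. All 3 other scalings give 10 below and 1 at the LPS level. The same 10 had been at least 2-fold lower in WT R848, and of all 32 genes that were, 23 stayed below. The list was drawn up with earlier results of these data known, so its count is a description and not independent support. The median log2 ratio of KO R848 over WT R848 for the 11 genes was −0.06.

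The chemokine gene *Cxcl10* had 21.7 FPKM in KO R848 and 3350.5 FPKM in WT LPS, a 155-fold gap. WT R848 had 11.9 FPKM and KO LPS 2669 FPKM, so KO R848 was 1.82-fold above its wild type and covered 10.6% of the log2 distance. *Mx1* (chromosome 16, 97447035 to 97463003), a GTPase that restricts RNA viruses, had 4.46 FPKM in KO R848 and 376 FPKM in WT LPS. WT R848 had 5.18 FPKM. Its relative *Mx2* had 0.967 FPKM in KO R848 and 142 FPKM in WT LPS, against 1.00 FPKM in WT R848. For both genes KO R848 and WT R848 were within 1.25-fold of each other. KO LPS had 326 FPKM of *Mx1* and 121 FPKM of *Mx2*, so KO R848 was far below LPS-treated cells of its own genotype too.

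*Irf1*, a transcription factor gene induced by interferon, had 169 FPKM in KO R848 and 639 FPKM in WT LPS, with 173 FPKM in WT R848. *Tapbp*, which encodes tapasin of the peptide-loading complex, had 4.97 FPKM in KO R848 and 31.7 FPKM in WT LPS, with 7.08 FPKM in WT R848. The checkpoint ligand gene *Cd274*, for PD-L1, had 113 FPKM in KO R848 and 360.0 FPKM in WT LPS, with 126 FPKM in WT R848. None of these 3 was nearer to WT LPS in the knockout. *Il15*, the cytokine that sustains NK cells and memory T cells, had 33.8 FPKM in KO R848 and 299 FPKM in WT LPS, with 68.1 FPKM in WT R848, so KO R848 was farther from WT LPS by more than 2-fold. *Il27*, the p28 subunit of interleukin-27, had 50.02 FPKM in KO R848 and 259.5 FPKM in WT LPS, against 29.1 FPKM in WT R848, and was nearer to WT LPS in the knockout. *Psme2*, a proteasome activator subunit, had 229 FPKM in KO R848 and 367 FPKM in WT LPS.

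Among 10 chemokines, 6 were at least 2-fold below WT LPS in KO R848, against 19.4% of all listed genes, 3 were at its level and 1 was above it. Their median log2 ratio was −1.72, and the split was 7, 2 and 1 when scaled on the genes least induced. *Cxcl10*, *Ccl5* and *Cxcl9* are also on the list of interferon-inducible genes, so the counts of these lists overlap. *Ccl5* (chromosome 11, 83524875 to 83530518), which attracts T cells and monocytes, had 496 FPKM in KO R848 and 3128 FPKM in WT LPS. WT R848 had 345 FPKM, and 16.5% of the distance was covered. *Ccl4* came nearer, with 825 FPKM in KO R848 and 2408 FPKM in WT LPS, against 437 FPKM in WT R848. The monocyte attractant *Ccl2* had 193 FPKM in KO R848 and 715 FPKM in WT LPS, and *Ccl22*, which attracts CCR4-bearing T cells, 8.99 FPKM in KO R848 and 46.5 FPKM in WT LPS. *Cxcl9*, like *Cxcl10* a ligand of CXCR3, had 1.23 FPKM in KO R848 and 10.0 FPKM in WT LPS. For these 6 chemokines KO R848 lay between WT R848 and WT LPS, except for *Ccl22*, where it was below both. At the LPS level were *Ccl3* (3382 FPKM in KO R848 and 2394 FPKM in WT LPS), *Ccl9* and *Ccl17*, which were also at that level in WT R848. *Cxcl5*, a neutrophil attractant, was the member above it, with 28.9 FPKM in KO R848 and 9.15 FPKM in WT LPS.

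Outside these groups, *Adora2a*, an adenosine receptor gene, had 3.33 FPKM in KO R848 and 93.9 FPKM in WT LPS, and *Edn1*, for the vasoconstrictor endothelin-1, 23.0 FPKM in KO R848 and 110.5 FPKM in WT LPS. *Tnfsf15*, a TNF superfamily ligand gene, had 9.88 FPKM in KO R848 and 54.0 FPKM in WT LPS. It started from 2.85 FPKM in WT R848, so it stood 3.46-fold above its wild type without reaching the line. All 3 genes had been at least 2-fold below WT LPS in WT R848, and KO R848 was nearer to it than WT R848 in each. *Csf1*, for M-CSF, was nearest to the line from below, with 27.0 FPKM in KO R848 and 56.5 FPKM in WT LPS, and it was at the LPS level under 2 of the 3 other scalings. The cell cycle genes *Ccnd2* (cyclin D2; 16.3 FPKM in KO R848 and 73.1 FPKM in WT LPS) and *Cdkn1a* (the inhibitor p21; 313 FPKM in KO R848 and 928 FPKM in WT LPS) and the co-stimulator *Cd80* (15.6 FPKM in KO R848 and 39.5 FPKM in WT LPS) stayed below as well. *Hamp*, for the iron regulator hepcidin, *Serpina3f* and the endothelial lipase gene *Lipg* were under 1 FPKM in KO R848 and between 2.44 and 4.61 FPKM in WT LPS.

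Of the 24 genes below WT LPS, 20 were also at least 2-fold below KO LPS. The same held for 1 of the 74 genes at the LPS level and 0 of the 26 above it. These positions were picked on KO R848, and the ratio to KO LPS uses the same mean. The contrast is therefore partly built in and is no independent support. Over all genes, KO R848 was under 2-fold from KO LPS for 91 (73.4%). The 4 genes below WT LPS but not below KO LPS by that much were *Ccl22*, *Cdkn1a*, *Ripk2* and *Csf1*.

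Promoter sequences were read for the genes with an entry in the RefSeq table of GRCm38.p6, 85 of the 124, over 250 bases before and 50 after the start site. Of the 24 genes below WT LPS, 13 had an entry. *Mx1*, *Mx2*, *Ccl5*, *Il15* and *Il27* were among those without one and were not searched. They were searched on both strands for GAAA, any 2 bases and GAAA, a form of the interferon-stimulated response element bound by IRF and STAT factors, and for GGGA, any 4 bases and CC, a form of the κB site bound by NF-κB. The interferon-response letters were in 2 of 13 genes below WT LPS (15.4%), *Cxcl10* and *Edn1*, in 2 of 60 at its level (3.33%) and in 0 of 12 above it, against 3.99% of the 27025 genes in the table. *Irf1*, *Tapbp*, *Cd274* and *Cxcl9* were searched and did not hold these letters. The κB letters were in 7 of the 13 (53.8%), 26 of the 60 (43.3%) and 5 of the 12 (41.7%), against 22.9% of all genes. These are matches of letters and do not show binding, and the 2 motifs shared no bases in the stretches shown.

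The stretches below are upstream of the start site in the RefSeq table, 5′ to 3′ on the gene's strand, with matches in capitals. The *Il6* locus given above starts at 30013073, within its stretch, so the sources place its start differently. *Cxcl10* (chr5:92348968-92349117, minus strand) holds 1 interferon-response match, the leftmost, and 2 κB matches. *Edn1* (chr13:42301383-42301422, plus strand) holds an interferon-response match read on the opposite strand, *Cxcl9* (chr5:92328185-92328224, minus strand) 1 κB match, and *Il6* (chr5:30013055-30013095, plus strand) 2 κB matches that overlap. *C3* (chr17:57228137-57228348, minus strand) and *Serpina3n* (chr12:104406523-104406689, plus strand), which were above WT LPS in KO R848, hold κB matches and none of the other motif.
Cxcl10: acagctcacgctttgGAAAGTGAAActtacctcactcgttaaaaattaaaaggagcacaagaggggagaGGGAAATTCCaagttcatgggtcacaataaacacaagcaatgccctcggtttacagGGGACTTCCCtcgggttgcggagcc
Edn1: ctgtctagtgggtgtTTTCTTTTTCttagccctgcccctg
Cxcl9: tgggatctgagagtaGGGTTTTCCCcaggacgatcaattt
Il6: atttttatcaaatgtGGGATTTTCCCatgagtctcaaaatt
C3: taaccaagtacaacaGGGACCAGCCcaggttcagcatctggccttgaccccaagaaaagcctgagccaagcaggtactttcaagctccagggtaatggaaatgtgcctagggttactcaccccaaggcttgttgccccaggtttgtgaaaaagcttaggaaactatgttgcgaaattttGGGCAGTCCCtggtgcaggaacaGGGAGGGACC
Serpina3n: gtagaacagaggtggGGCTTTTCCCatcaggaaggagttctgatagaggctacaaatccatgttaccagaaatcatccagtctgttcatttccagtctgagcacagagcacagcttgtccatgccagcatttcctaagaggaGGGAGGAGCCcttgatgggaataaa

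All 8 genes that encode NF-κB or IκB proteins were at the LPS level in KO R848, with log2 ratios from −0.59 for *Nfkbie* to 0.40 for *Nfkbiz*, against 59.7% of all listed genes at that level, and all 8 had been at it in WT R848. This count of 8 was the same under all 3 other scalings, whereas the sign of their median, −0.13, was not. *Nfkbia*, which encodes the inhibitor IκBα, had 750.0 FPKM in KO R848 and 822 FPKM in WT LPS. *Nfkb1*, for p105 and p50, had 308 FPKM in KO R848 and 333 FPKM in WT LPS, and *Nfkb2*, for p100 and p52, 246 FPKM in KO R848 and 314 FPKM in WT LPS.

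Of the 10 inflammatory cytokines, 5 were at the LPS level, against 59.7% of all listed genes. *Tnf*, *Il1b*, *Il1a* and *Il1rn*, the most abundant of the 10, were among them, whereas *Il15* was below WT LPS. *Tnf* (chromosome 17, 35199381 to 35202007), which encodes tumor necrosis factor, had 2838 FPKM in KO R848 and 2281 FPKM in WT LPS. WT R848 had 2141 FPKM, so the wild-type groups were 1.07-fold apart to begin with. *Il1b*, for interleukin-1β, had 2108 FPKM in KO R848 and 2109.6 FPKM in WT LPS, against 1859 FPKM in WT R848, the closest match of the 124. *Il1a* had 1724 FPKM in KO R848 and 2295 FPKM in WT LPS, and the receptor antagonist *Il1rn* 356 FPKM in KO R848 and 501 FPKM in WT LPS. *Il1rn* and *Il2ra*, for the interleukin-2 receptor α chain, had been just inside the 2-fold line in WT R848, at 1.98-fold and just under 2-fold below WT LPS.

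In the IL-12 family, 4 of 5 subunit genes were at the LPS level, against 59.7% of all listed genes. *Il12p40* (the gene *Il12b*), the subunit shared by interleukin-12 and interleukin-23, had 198 FPKM in KO R848 and 158 FPKM in WT LPS. WT R848 had 91.9 FPKM, so KO R848 stood 1.26-fold above WT LPS and WT R848 1.72-fold below it, both inside 2-fold. *Il12a*, its partner in interleukin-12, had 58.4 FPKM in KO R848 and 62.8 FPKM in WT LPS, against 40.9 FPKM in WT R848. *Il23a*, the partner in interleukin-23, was the member that went the other way, with 15.4 FPKM in KO R848 and 26.2 FPKM in WT LPS, against 27.2 FPKM in WT R848. *Ebi3*, the partner of p28 in interleukin-27, had 31.0 FPKM in KO R848 and 20.8 FPKM in WT LPS.

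Of 15 genes for innate receptors, adapters and signaling enzymes, 12 were at the LPS level, against 59.7% of all listed genes. *Tnfaip3*, for the ubiquitin editor A20, had 370.1 FPKM in KO R848 and 536 FPKM in WT LPS, and *Tlr2*, a receptor for bacterial lipopeptides, 415 FPKM in KO R848 and 545 FPKM in WT LPS. *Ripk2*, for the kinase that carries signals from NOD1 and NOD2, was the single gene at the LPS level in WT R848 and below it in KO R848. It had 40.8 FPKM in KO R848 and 94.6 FPKM in WT LPS, against 51.5 FPKM in WT R848, and it returned to the LPS level under 2 of the 3 other scalings. Among 7 survival and death genes 6 were at the LPS level, against the same 59.7%. They include *Cflar*, for the caspase-8 regulator cFLIP (294 FPKM in KO R848 and 485 FPKM in WT LPS), and *Bcl2a1d* (545 FPKM in KO R848 and 508 FPKM in WT LPS). The near-identical *Bcl2a1* copies can share reads, so their single values are uncertain.

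Just inside the lower line were *Tfec*, a transcription factor gene (log2 ratio −0.99), *Serpina3g* (−0.95) and the co-stimulatory receptor gene *Cd40* (−0.93), and just outside it *Csf1* (−1.07), *Ripk2* (−1.21) and *Cd80* (−1.34). Just inside the upper line were *Cd38*, an NAD-cleaving enzyme gene (0.98), *Olr1*, a receptor for oxidized lipoprotein (0.97), and *Serpine2* (0.88), and just outside it *Nrg1* (1.05), *F11r* (1.06) and *C3* (1.25).

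The remaining roles held genes in 2 or all 3 positions, and several of their counts change with the scaling. Over all listed genes, 19.4% were below WT LPS, 59.7% at its level and 21% above it. Of 13 matrix, adhesion and coagulation genes, 8 were at the LPS level and 5 above it, with a median log2 ratio of 0.25. *Cd44*, for a hyaluronan receptor, had 529 FPKM in KO R848 and 910.3 FPKM in WT LPS, and *Tgm2*, for the cross-linking enzyme transglutaminase 2, 215 FPKM in KO R848 and 181 FPKM in WT LPS. Of 11 complement, acute phase and serpin A3 genes, 2 were below WT LPS, 5 at its level and 4 above it. *Ptx3*, for the soluble pattern receptor pentraxin 3, was at it with 34.0 FPKM in KO R848 and 23.1 FPKM in WT LPS, against 12.5 FPKM in WT R848. Of 11 lipid, eicosanoid, purine and pyrimidine genes, 2 were below, 6 at the LPS level and 3 above it, with 6 above it under 2 of the 3 other scalings. When scaled on the genes least induced, 2 of the matrix, adhesion and coagulation genes were below WT LPS, 7 at its level and 4 above it.

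Of 11 transcription factor genes, 1 was below WT LPS, 7 were at its level and 3 above it, which became 3, 5 and 3 when scaled on the genes least induced and 1, 5 and 5 on the genes of highest level, and *Junb*, an AP-1 subunit, had 438 FPKM in KO R848 and 363 FPKM in WT LPS. The 5 growth factor and peptide hormone genes split into 1, 2 and 2, and the 10 inflammatory cytokines into 3, 5 and 2. When scaled on the genes least induced, these splits were 1, 3 and 1 for the growth factors and 4, 4 and 2 for the cytokines, and on the median gene or the genes of highest level the cytokines split into 2, 6 and 2. Of 8 co-stimulation and immune cell surface genes, 2 were below, 3 at the LPS level and 3 above it. Of 5 cell cycle and stress genes, 2 were below and 3 at it, among them *Sod2*, for the mitochondrial superoxide dismutase, with 323 FPKM in KO R848 and 254 FPKM in WT LPS.

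**Figure D3:**
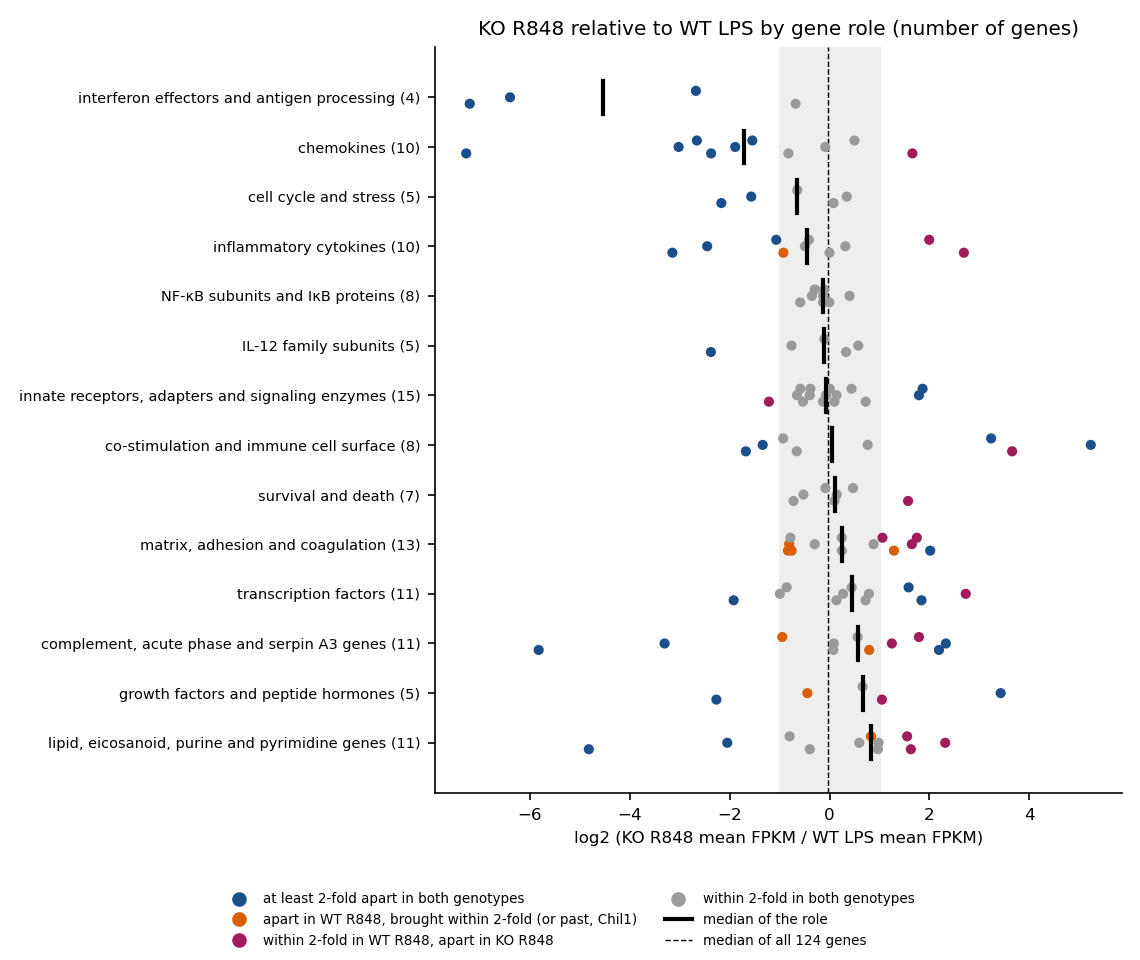
Log2 of KO R848 over WT LPS for 123 genes in 14 roles, with the number of genes in brackets, from the authors' mean FPKM. Points are genes, black bars the median of each role, the dashed line the median of all 124 genes and the grey band 2-fold either way. The 8 NF-κB and IκB genes lie inside the band, interferon effectors and chemokines have the lowest medians, and the remaining roles spread to both sides. A joined locus without a role is not drawn.

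The 26 genes above WT LPS fall into 10 that were already at least 2-fold above it in WT R848, 15 that had been at its level, and *Chil1*. All 10 stayed at least 2-fold above WT LPS, and 9 of them were farther from it in KO R848 than in WT R848, with *Myc* as the exception. *Pdgfb*, for the B chain of platelet-derived growth factor, had 100.2 FPKM in KO R848 and 9.33 FPKM in WT LPS, against 50.9 FPKM in WT R848. *Cebpd*, for the transcription factor C/EBPδ, had 27.5 FPKM in KO R848 and 7.68 FPKM in WT LPS, against 19.7 FPKM in WT R848. The growth regulator *Myc* had 17.3 FPKM in KO R848 and 5.76 FPKM in WT LPS, against 19.1 FPKM in WT R848. *Plk3*, a stress-response kinase gene, had 9.53 FPKM in KO R848 and 2.76 FPKM in WT LPS.

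Markers of neutrophils were among these 10. All 3 of the 9 listed neutrophil markers that have values were above WT LPS, against 21% of all listed genes. Their summed level was 75.5 FPKM in KO R848, 14.7 FPKM in WT LPS and 36.6 FPKM in WT R848. The other 6, among them *S100a8*, *S100a9* and *Ly6g*, were not analysed here. The marker list was drawn up with earlier results of these data known, so its count is a description and not independent support. *Trem1* (chromosome 17, 48232768 to 48246924), a receptor that amplifies inflammation on neutrophils and monocytes, had 6.00 FPKM in KO R848 and 0.160 FPKM in WT LPS, against 0.548 FPKM in WT R848 and 2.49 FPKM in KO LPS. *Lcn2*, which encodes a protein that withholds bacterial siderophores, had 55.6 FPKM in KO R848 and 11.1 FPKM in WT LPS, against 23.0 FPKM in WT R848. *Mmp9*, a gelatinase gene, had 13.8 FPKM in KO R848 and 3.42 FPKM in WT LPS, against 13.0 FPKM in WT R848. KO R848 was 10.9-fold above WT R848 for *Trem1*, 2.41-fold for *Lcn2* and 1.07-fold for *Mmp9*. Untreated *N4bp1*-/- and *N4bp1*+/+ cells had 0.205 and 0.0271 FPKM of *Trem1*, 1.61 and 2.26 FPKM of *Lcn2*, and 4.30 and 1.29 FPKM of *Mmp9*. Whether neutrophils have a part in these levels was not tested. *Tnfrsf9* and *Fcer2a* were under 1 FPKM in KO R848, WT LPS and WT R848, and *Orm1*, an acute phase gene, was so in the wild-type groups. The highest fold above WT LPS, 37.5-fold for *Trem1*, thus rests on a WT LPS level far below 1 FPKM.

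The 15 genes that were at the LPS level in WT R848 and above it in KO R848 include prostaglandin synthesis, matrix, complement and cytokine genes. *Ptges* (chromosome 2, 30889471 to 30934953), for the synthase that makes prostaglandin E2, had 166 FPKM in KO R848 and 33.4 FPKM in WT LPS. WT R848 had 40.5 FPKM and KO LPS 146 FPKM. *Ptgs2*, for COX-2, the enzyme before it in the pathway, had 452 FPKM in KO R848 and 154 FPKM in WT LPS, against 175 FPKM in WT R848 and 226 FPKM in KO LPS. In both genes the wild-type groups were close to each other and KO R848 stood apart.

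*Il10*, the anti-inflammatory cytokine, had 13.7 FPKM in KO R848 and 3.43 FPKM in WT LPS, against 3.56 FPKM in WT R848 and 7.95 FPKM in KO LPS. *Csf3*, for G-CSF, had 7.92 FPKM in KO R848 and 1.23 FPKM in WT LPS, against 2.00 FPKM in WT R848 and 2.23 FPKM in KO LPS. *Ier3*, an early stress-response gene, had 115 FPKM in KO R848 and 38.6 FPKM in WT LPS, against 53.8 FPKM in WT R848 and 41.2 FPKM in KO LPS. *Csf3*, *Ier3* and, at the 2-fold line itself, *Ptgs2* were the 3 of the 15 at least 2-fold higher in KO R848 than in KO LPS as well.

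*C3*, the central complement component, had 103 FPKM in KO R848 and 43.3 FPKM in WT LPS, against 44.1 FPKM in WT R848. The fibronectin gene *Fn1* had 557 FPKM in KO R848 and 166 FPKM in WT LPS, against 190.3 FPKM in WT R848, and in untreated cells 339.8 FPKM in *N4bp1*-/- and 84.8 FPKM in *N4bp1*+/+. *Thbs1*, for thrombospondin 1, had 159 FPKM in KO R848 and 50.7 FPKM in WT LPS, against 46.8 FPKM in WT R848. *Fn1* and *Thbs1* are also the 2 of 7 listed markers of resident peritoneal macrophages that have values, with a summed level of 716 FPKM in KO R848 and 217 FPKM in WT LPS. *Ccr7*, a receptor that guides dendritic cells to lymph nodes, had 2.71 FPKM in KO R848 and 0.215 FPKM in WT LPS, and *Sox9*, a transcription factor of stromal and cartilage cells, 1.55 FPKM in KO R848 and 0.234 FPKM in WT LPS. Of the 4 dendritic cell markers with values, *Ccr7* was the single one above WT LPS, and *Ccl22* was below it. Of 5 stromal markers, *Sox9*, *Cyp7b1* and *Nrg1* were above it and *Vcam1* and *Serpine2* at its level. The summed level of these dendritic cell markers was 322 FPKM in KO R848 and 536 FPKM in WT LPS. Most of it was *Cd83*, with 309 FPKM in KO R848 and 487 FPKM in WT LPS. That of the stromal markers was 55.9 FPKM in KO R848 and 89.2 FPKM in WT LPS. Most of it was *Vcam1*, with 48.8 FPKM in KO R848 and 86.9 FPKM in WT LPS. Each of these sums therefore mainly follows a single gene. The B and T cell markers *Fcer2a* and *Il2ra*, 2 of 7 listed, summed to 0.888 FPKM in KO R848 and 0.377 FPKM in WT LPS. None of the markers with values was at 0, and the part of other cells in these results was not tested. *Cyp7b1*, an oxysterol-metabolizing enzyme gene, *Serpina3n*, *F11r*, for the junction protein JAM-A, and *Nrg1*, for neuregulin 1, had between 1.27 and 15.6 FPKM in KO R848 and between 0.445 and 7.51 FPKM in WT LPS.

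For most of the 15 genes *N4bp1*-/- cells were also above *N4bp1*+/+ cells of the same treatment in the groups without R848. KO LPS was at least 2-fold above WT LPS in 10 of the 15 (20 of all 124 genes, 16.1%), and untreated *N4bp1*-/- cells were at least 2-fold above untreated *N4bp1*+/+ cells in 13 (43 of all 124, 34.7%). Several untreated ratios rest on low levels. Untreated *N4bp1*-/- and *N4bp1*+/+ cells had 0.0375 and 0.0135 FPKM of *Csf3*, 0.942 and 0.0452 FPKM of *Ccr7*, and 2.03 and 0.694 FPKM of *Ptgs2*. In 9 genes *N4bp1*-/- cells were at least 2-fold above *N4bp1*+/+ cells without stimulus, after R848 and after LPS. The 15 genes were picked on KO R848 over WT LPS. Ratios that use KO R848 or WT LPS therefore share values with that choice and are no independent support, whereas the untreated ratios share none. KO R848 was under 2-fold from KO LPS in 12 of the 15, which is near the share over all genes (91 of 124, 73.4%). The labels do not say whether untreated and treated libraries were prepared together, but these genotype ratios are taken within a treatment. Counted with *Ripk2*, 16 genes were at the LPS level in WT R848 and off it in KO R848, and 11 of them, without *Ripk2*, were so under all 3 other scalings. Of the 26 genes above WT LPS, 24 were above it under all 3.

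**Figure D4:**
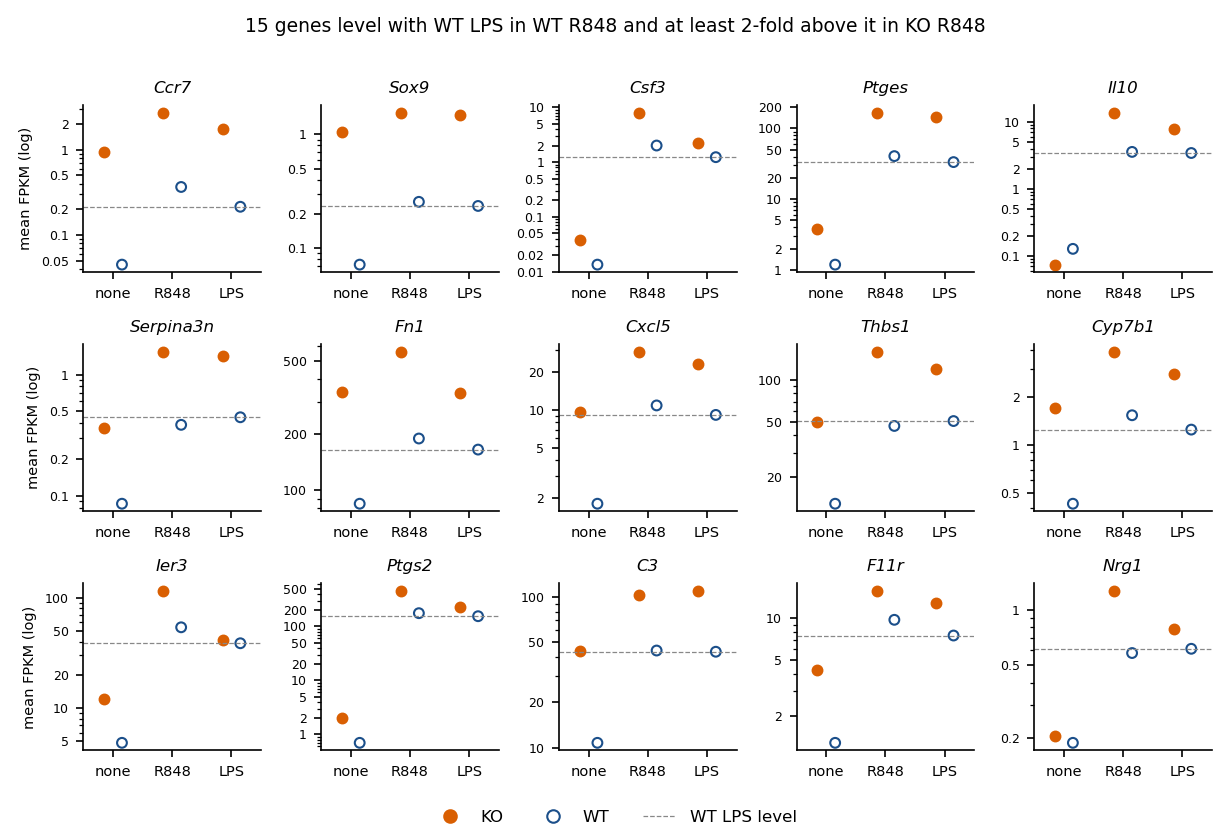
Mean FPKM of 2 mice on log axes for the 15 genes at the WT LPS level in WT R848 and at least 2-fold above it in KO R848, without stimulus, after R848 and after LPS. Filled points are *N4bp1*-/- (KO) and open circles *N4bp1*+/+ (WT), and the dashed line is the WT LPS level. The open circles after R848 lie near the dashed line and the filled points after R848 above it, and for most genes, such as *Fn1*, *C3* and *Ptges*, the filled point after LPS is above the line too.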

How the data were processed

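RNA of peritoneal macrophages from 12 libraries in 6 groups, with 2 mice a group by the labels, was sequenced as stranded mRNA libraries. The build was mm10, and the tools in the submitters' processing notes are TopHat2 2.0.10, Cufflinks 2.1.1 and CASAVA 1.8.2. The methods name cuffdiff for the comparisons. The sources used here give neither the annotation nor the read filters nor the scaling between treatments. The authors deposited FPKM values as 1 mean for each group, without values per library or counts, so no interval or test was possible. The authors' fold changes, test scores, p-values and q-values, which compare genotypes within a treatment, were not used.

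The tables for R848 and LPS were joined on the gene name (124 genes), and log2(KO R848/WT LPS) was computed with no pseudocount and no filter. Genes 2-fold or more apart were counted as below or above. For genes apart in wild type, the share of distance covered is log2(KO R848/WT R848) over log2(WT LPS/WT R848), in percent. Both share the WT R848 mean. The genes, the role and marker lists and the comparisons were chosen with earlier results of these data known. The rule for naming took the genes the study names for this experiment and every gene brought to, past or away from the LPS level. It also took the 12 lowest and 12 highest ratios at 1 FPKM or more in either group and the 3 genes on each side of each 2-fold line. Up to 4 members per list were taken by level, but the results leave some of them out. *Tnfaip2* and *Tnfrsf1b*, both at the LPS level, are among those left out. *Tnfrsf9*, *Ccl2*, *Ccl9*, *Nfkbie*, *Myc*, *Il23a* and *Lipg* were named outside this rule, after their values were seen. Of the genes brought to the LPS level, 1 is not reported here by name: it is in the counts and medians but not in the stromal marker values or the plot of levels by gene. The other scalings multiplied the LPS table so that the median gene, the 31 genes least induced in wild type or the 41 genes of highest wild-type level had a median ratio of 1 between WT LPS and WT R848. The classification was tested on simulated data. Values were computed with pandas 2.3.3 and numpy 2.4.6 in Python 3.11.15, and figures drawn with matplotlib 3.10.9.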

Additional observations from a re-analysis of the deposited data

How the results depend on the processing

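The counts and the median ratio were recomputed with a pseudocount of 0.1 or 1 FPKM, with 2 filters at 1 FPKM, without the 4 joined loci, under the 3 other scalings, with 1.5-fold or 3-fold as the line, and from the study's supplementary table, in which all 744 values were equal. No gene changed from below WT LPS to above it or the reverse. With a pseudocount of 1 FPKM, 5 of the genes above WT LPS in WT R848 stayed above in place of 10. With 1 FPKM or more in KO R848, WT LPS and WT R848, which 106 genes passed, 17 genes were above WT LPS and 6 stayed above. The median log2 ratio was 0.18 when scaled on the median gene, −0.24 on the genes least induced and 0.29 on the genes of highest level, with shifts of the LPS table of −0.22, 0.20 and −0.33. Its sign therefore depends on the scaling. The genes above and below WT LPS numbered 32 and 22, 24 and 32, and 35 and 22 under these scalings, against 26 and 24. At 1.5-fold, 44 genes were at the LPS level, 43 below it, 35 stayed below and 26 left it, and at 3-fold 5 stayed above. The remaining values of the counts over all genes by position and by starting point moved by no more than 1.5 times, whereas counts within single roles moved more. The count of 8 genes brought to the LPS level also held within that bound, although its members did not. No paired analysis was possible because the values are means over both mice, and for the same reason leaving out each mouse was not possible. Low genes and genes near a line are the least certain, and the unknown depth and spread between mice limit every value.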
